A study of Homo sapiens with 6 samples.

Results

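The genes described here are the cytosolic ribosomal protein genes, which encode the protein part of the ribosomes that translate nuclear mRNAs. They were taken by symbol: protein-coding genes named RPL, RPS or RPLP followed by a number with at most 1 suffix letter (A, X, L or Y), plus RPSA and FAU, with the RPS6K kinases left out. The rule found 82 genes among the 27738 genes matched in the table: 46 of the large subunit, 32 of the small subunit and 4 paralogs (RPL3L, RPL10L, RPL39L and RPS27L). Each gene was represented by its RefSeq accession with the highest base mean, the average over libraries of reads divided by size factors.

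The data came from RNA sequencing of U87 cells, a human line established from a glioblastoma. Cells labelled EGFR+vIII TLR2 KO (3 libraries) were compared with cells labelled EGFR+vIII (3 libraries). Both groups therefore carry EGFR, the epidermal growth factor receptor, and vIII, its constitutively active deletion mutant of glioblastoma. The knockout is of TLR2, a cell surface receptor of innate immunity. The labels do not say whether the knockout is 1 clone, or whether its libraries are independent cultures; the spread behind the p-values may therefore be technical.

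The files hold 1 table of the authors' own comparison and no value per library, so each gene is given here by its base mean over the 6 libraries, its fold change and its standard error (SE). The base means of the authors' deposited table sum to 11240272 normalised reads, and the derived size factors of the 6 libraries ranged from 0.928 to 1.07. Fold changes are taken to put the knockout over EGFR+vIII cells, because the table names its groups that way round. TLR2 cannot check that order, since its 8 accessions are all listed at 0 per the authors' deposited table, and with the opposite order every direction below would reverse. Of markers of such glioblastoma lines, VIM had a base mean of 126476 per the authors' deposited table, whereas GFAP and SPARC were listed at 0. Markers of other cell types varied: PTPRC of leucocytes and CDH1 of epithelia were listed at 0, CD68 of macrophages had a base mean of 42.6, EPCAM of epithelia one of 22.4 and PECAM1 of endothelia one of 159 per the authors' deposited table. PTPRC and CDH1 have 4 accessions each, and several ribosomal protein genes with more than 1 accession are listed at 0 too, so these zeros do not show absence.

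A ribosome has a small subunit, which reads the mRNA, and a large subunit, which joins the amino acids, and each holds ribosomal RNA and many proteins, most of them present once. The mRNAs of ribosomal proteins typically start with a C followed by a run of pyrimidines, the terminal oligopyrimidine or TOP motif. Through this motif the growth-regulating kinase mTOR and the RNA-binding protein LARP1 control how much of them is translated and how stable they are. In tumour cells their levels are often read as a sign of growth signalling.

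Among the 65 ribosomal protein genes with an adjusted p, 16 rose in the knockout and 1 fell, all but 1 of them by less than 2-fold, and 48 did not pass. The genes that rose included RPL12, RPL23A, RPL27, RPL27A, RPL30, RPL37, RPL41 and RPLP2 of the large subunit and RPS6, RPS7, RPS13, RPS21, RPS26 and FAU of the small one. The gene that fell was the paralog RPS27L. The median log2 fold change (log2FC) of the 65 genes was 0.25 per the authors' deposited table, against 0.02 over all 10303 tested accessions.

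The call used was the authors' deposited adjusted p under 0.05 from a DESeq2 Wald test, adjusted by Benjamini-Hochberg over all tested accessions. By that call 17 of the 65 genes (26.2%) differed, close to the 23.5% of all tested accessions. The split by direction was uneven: 16 of 65 (24.6%) were higher, against 11.6% of all tested accessions, and 1 of 65 (1.54%) was lower, against 11.9%. Of the 48 genes that did not pass, 35 had positive and 13 had negative log2FC values per the authors' deposited table. The signs of all uncalled accessions are not given here. Called or not, 51 of the 65 genes were positive and 14 negative, against 5340 and 4963 of the 10303 tested accessions. Against a 1.5-fold null, 0 of the 65 genes passed in either direction, whereas 3.96% of all tested accessions did (1.92% higher and 2.04% lower). The Wald scores of all accessions were also centred on their median and divided by a robust estimate of their spread. With these scaled scores FAU alone stayed higher and RPS27L alone stayed lower (1 and 1 of 65). Among all tested accessions 8.67% were called in this way (3.73% higher and 4.94% lower). In bulk RNA, a change in cell make-up and a change in RNA per cell cannot be told apart, and all values are relative to the other genes.

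**Figure D1:**
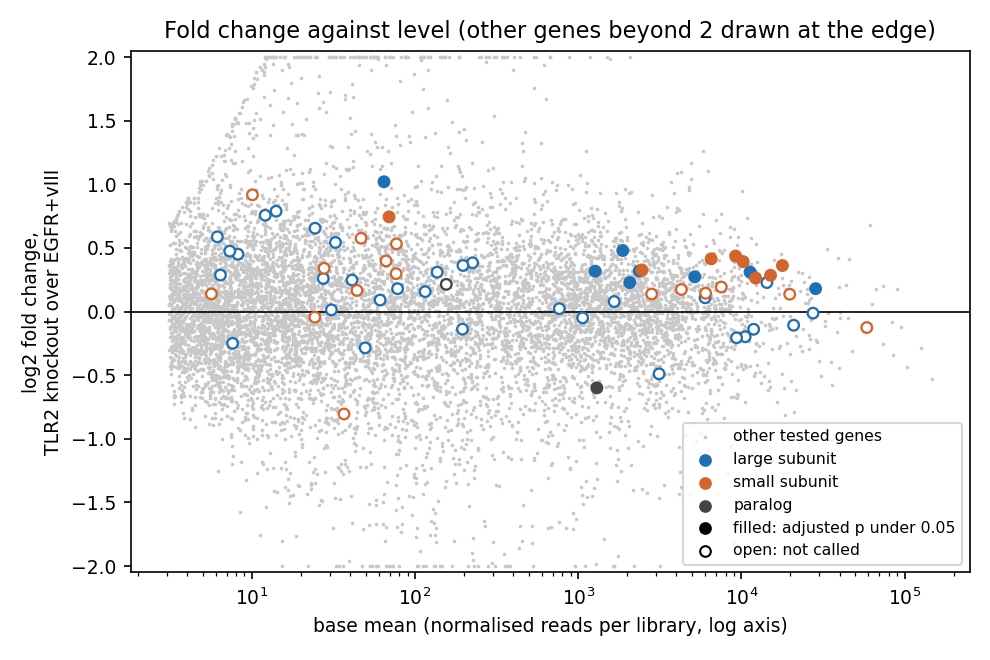
Log2 fold change (knockout over EGFR+vIII) against base mean on a log axis, with the ribosomal protein genes in colour over all other tested genes in grey (grey points beyond 2 either way are drawn at 2). Filled points mark an adjusted p under 0.05: 16 ribosomal protein genes lie above 0 and 1, RPS27L, below.

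The precision of a fold change depends on the reads behind it, and 31 of the 82 genes had a base mean of at least 1000. Of these 31, 14 rose and 1 fell per the authors' deposited table, which makes 48.4% called, against 48.5% of the 2056 tested genes at that level. Higher calls made up 45.2% of the 31, against 22.3% of genes at that level, and lower calls 3.23%, against 26.2%. The median log2FC of the 31 was 0.18, against 0.01 for all tested genes at that level. Above a base mean of 5000 the split was the same in kind, with 9 of 20 ribosomal protein genes higher and 0 lower, against 91 higher and 160 lower of 468 other genes.

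**Figure D2:**
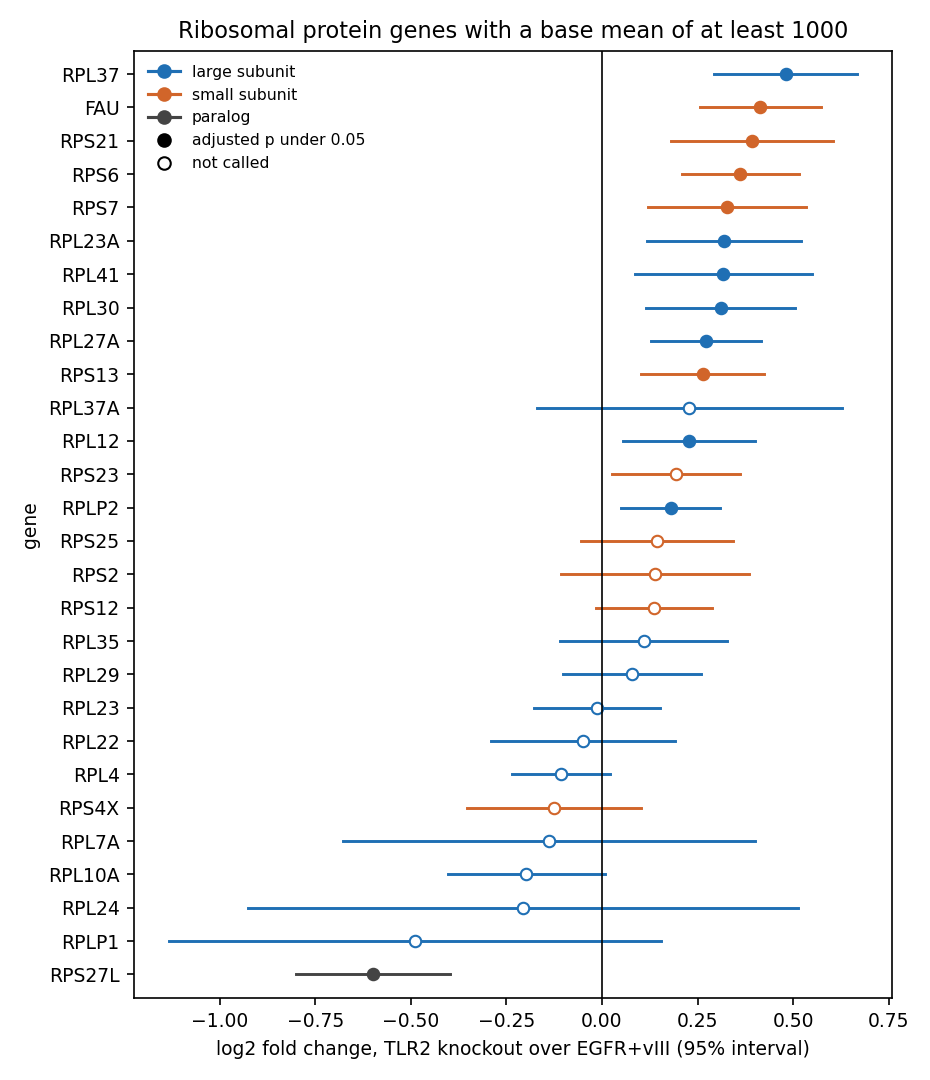
Log2 fold change with its 95% interval from the deposited SE for 28 of the 31 ribosomal protein genes with a base mean of at least 1000. Filled points passed an adjusted p of 0.05; RPL37 is highest at 0.48 and RPS27L lowest at -0.60, and RPL24, RPLP1, RPL7A and RPL37A have the widest intervals.

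Of the small subunit, 8 of 24 tested genes (33.3%) rose and 0 fell, against 12.4% of all tested genes higher and 12.7% lower, with a median log2FC of 0.29 per the authors' deposited table. At a base mean of at least 1000, 7 of its 13 genes rose, against 22.3% of all tested genes there. FAU (chromosome 11, 65120630 to 65122134, GRCh38), whose product is a ubiquitin-like protein fused to a small-subunit protein, rose 1.33-fold (95% interval 1.19 to 1.49; adjusted p = 4.05e-06 per the authors' deposited table). RPS21 rose 1.31-fold (interval 1.13 to 1.52; adjusted p = 0.00204 per the authors' deposited table). RPS6 (chromosome 9, 19375715 to 19380236) is the subunit's protein that S6 kinases phosphorylate downstream of mTOR. RPS6 had a base mean of 17858 and rose by 0.36 (SE 0.08, adjusted p = 3.79e-05) on the log2 scale per the authors' deposited table.

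Among the other risers of the small subunit at high level were RPS7 (0.33, SE 0.11), which can also bind the p53 regulator MDM2, and RPS13 (0.26, SE 0.08), each a log2FC per the authors' deposited table. RPS26, a protein at the mRNA exit channel and a gene of Diamond-Blackfan anaemia, also rose, with a log2FC of 0.74 (SE 0.26, adjusted p = 0.0244 per the authors' deposited table) at a base mean of 69.3. RPS4X (chromosome X, 72272042 to 72277248) had the highest base mean of all ribosomal protein genes, 58739, and did not pass (log2FC -0.13, SE 0.12, adjusted p = 0.523 per the authors' deposited table). Its 95% interval reached from 0.78-fold to 1.07-fold. RPS12, next in level within the subunit (base mean 19788 per the authors' deposited table), had a log2FC of 0.14 (interval -0.02 to 0.29) and did not pass either. RPS23 had an unadjusted p-value of 0.0236 and an adjusted p of 0.0879 per the authors' deposited table, with a log2FC of 0.19 (SE 0.09). RPS27A, whose product is ubiquitin fused to a small-subunit protein, had a log2FC of 0.53 (SE 0.25, adjusted p = 0.119 per the authors' deposited table) at a base mean of 76.9.

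Of the large subunit, 8 of 39 tested genes (20.5%) rose and 0 fell, against 12.4% and 12.7% of all tested genes, with a median log2FC of 0.23 per the authors' deposited table. At a base mean of at least 1000, 7 of its 17 genes rose, against 22.3%, with a median log2FC of 0.11. RPL37 (chromosome 5, 40825262 to 40835222), a small zinc-binding protein, had a base mean of 1875 and rose by 0.48 on the log2 scale (interval 0.29 to 0.67; adjusted p = 6.3e-06 per the authors' deposited table). RPL23A, which lies at the exit of the peptide tunnel, rose by 0.32 (SE 0.10), RPL41, a very short basic peptide, by 0.32 (SE 0.12) and RPL30 by 0.31 (SE 0.10) on the log2 scale per the authors' deposited table. RPL27A rose by 0.27 (SE 0.07) and RPL12, at the base of the stalk, by 0.23 (SE 0.09) in the same units per the authors' deposited table. RPL27 (chromosome 17, 42998273 to 43002959) had the largest log2FC of any called ribosomal protein gene, 1.02 (SE 0.28, adjusted p = 0.00161 per the authors' deposited table). It rests on a base mean of 64.5 in 1 of 4 accessions, and its interval ran from 1.39-fold to 2.95-fold.

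The proteins of the flexible stalk, which recruits translation factors to the large subunit, were listed at very different levels. RPLP2 had a base mean of 28514 and rose by 0.18 (SE 0.07, adjusted p = 0.0298 per the authors' deposited table), the smallest rise among the called genes. RPLP1 had a base mean of 3133 and a log2FC of -0.49 with an SE of 0.33 (adjusted p = 0.33 per the authors' deposited table). RPLP0, with a base mean of 137, had a log2FC of 0.31 (SE 0.27, adjusted p = 0.486 per the authors' deposited table). Of the stalk genes only RPLP2 passed, and the intervals of the others (0.46-fold to 1.11-fold for RPLP1 and 0.86-fold to 1.78-fold for RPLP0) are wide.

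Abundant genes of the large subunit without a call were RPL23 and RPL4. RPL23, which binds MDM2 when free of ribosomes, had a base mean of 27479.5 and a fold of 0.99 (interval 0.88 to 1.11 per the authors' deposited table). RPL4, which reaches into the peptide tunnel, had a base mean of 20910 and a fold of 0.93 (interval 0.85 to 1.01 per the authors' deposited table). RPL22 (log2FC -0.05, SE 0.12, adjusted p = 0.85) and RPL3 (0.02, SE 0.16, adjusted p = 0.95) also did not pass per the authors' deposited table. RPL10, which helps subunits join, had a base mean of 78.2 and a log2FC of 0.18 with an SE of 0.28 (adjusted p = 0.737 per the authors' deposited table). Over both subunits and the paralogs, 16 genes with a base mean of at least 1000 did not pass, and for 12 of them the 95% interval lay within a change of 1.5-fold in either direction.

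The other 4 had SEs that were wide for their level: RPL24 (SE 0.37, base mean 9347), RPLP1 (SE 0.33), RPL7A (SE 0.28, base mean 11892) and RPL37A (SE 0.20, base mean 14335) per the authors' deposited table. Among 2025 other genes with a base mean of at least 1000 the median SE was 0.09 and the 95th percentile 0.13. The table has no value per library, so which libraries differed for these genes was not analysed here.

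RPS27L (chromosome 15, 63148249 to 63157477), a close paralog of RPS27 that p53 is known to induce, was the gene that fell. Its level in the knockout was 0.66-fold of that in EGFR+vIII cells (interval 0.57 to 0.76; log2FC -0.60, SE 0.10; adjusted p = 8.56e-08 per the authors' deposited table) at a base mean of 1302. RPS27 itself had a log2FC of 0.92 (SE 0.38, adjusted p = 0.0639 per the authors' deposited table) at a base mean of 10.1 and did not pass. RPL39L, a paralog of RPL39 known from testis and from tumours, had a base mean of 155 and a log2FC of 0.21 (SE 0.22, adjusted p = 0.577 per the authors' deposited table). RPL10L, a testis paralog of RPL10, had a base mean of 0.317 per the authors' deposited table, and RPL3L, a paralog of striated muscle, was listed at 0. Among relatives just outside the rule, RPL36AL (-0.25), RPL7L1 (0.01), RPL26L1 (0.67) and RPL22L1 (0.54) were tested, and none of these passed, by log2FC values per the authors' deposited table.

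What the table lists for a ribosomal protein gene went with the number of accessions the gene has in it. Of 39 genes with 1 accession, 29 had a base mean of at least 1000 per the authors' deposited table, and their median was 5180. Of 43 genes with 2 or more accessions, 2 reached 1000 (RPLP1 and RPL41), and the median was 14.1. For 9 genes all accessions, among them those of RPSA, RPL6, RPL13A, RPL18, RPL32, RPL3L, RPS9 and RPS16, were listed at 0 per the authors' deposited table. Another 8 genes had reads but no adjusted p, with base means up to 2.96: RPS3, RPS10, RPS14, RPS18, RPL5, RPL10L, RPL11 and RPL38. RPL5 (0.698) and RPL11 (2.48), which carry the smallest ribosomal RNA of the large subunit and bind MDM2 with it, are among these, so whether they changed was not detectable. RPS14, RPS18 and RPL10L share 1 base mean, 0.317, which amounts to about 2 reads over all 6 libraries. Apart from the paralogs RPL3L and RPL10L, these ribosomal proteins are made in every growing cell. Their listings therefore do not show that the genes were silent.

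**Figure D3:**
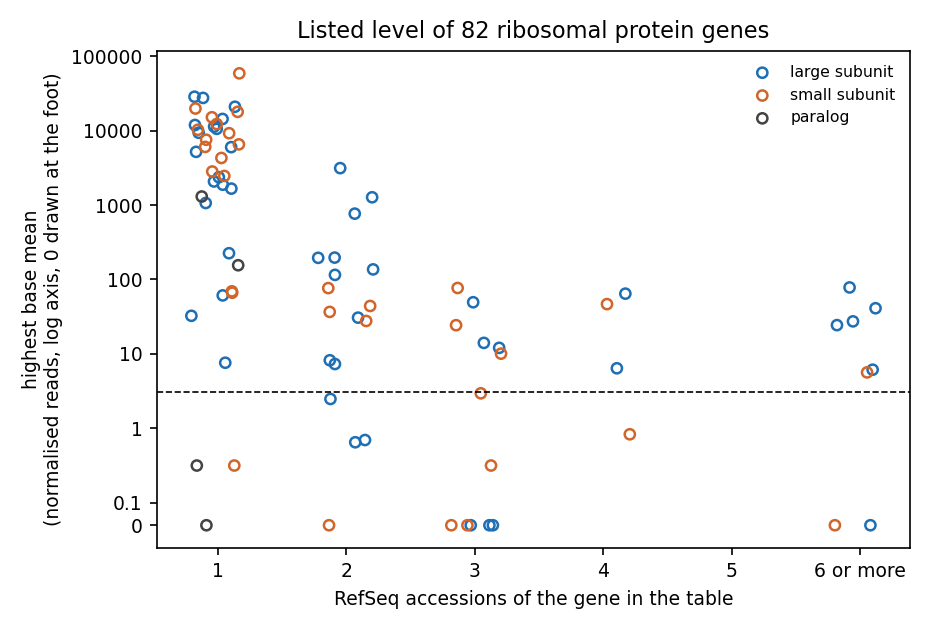
Highest base mean (log axis, with 0 drawn at the foot) of the 82 ribosomal protein genes by the number of RefSeq accessions each gene has in the table. The dashed line marks 3.11, the smallest base mean that received an adjusted p; genes with 1 accession have a median of 5180 and genes with 2 or more a median of 14.1.

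Reads from processed pseudogenes, which ribosomal protein genes have in large numbers, can also be shared with the parent gene. RefSeq names between 0 and 137 pseudogenes per gene for the 39 genes with 1 accession, and across them the number and the base mean were weakly related (Spearman rho -0.14, Pearson r -0.17, n = 39 genes that share the same libraries). RPL21, with 137 named pseudogenes, had a base mean of 32.5 per the authors' deposited table, and RPS26, with 59, one of 69.3. RPL23A, with 95, had 2365, and RPL12, with 50, had 2072, and for these genes the part of the reads that comes from copies was not tested. Per kilobase of coding length, base means of the 31 abundant genes ran from 2773 (RPL22) to 82650 (the stalk gene RPLP2), with RPS4X next at 74447. Most of these proteins are nevertheless present once per ribosome. The base means of the 82 genes added up to 2.99% of the base means listed for all accessions per the authors' deposited table. Genes listed at or near 0 add little to this share, which may therefore be too low. The 5 highest (RPS4X, RPLP2, RPL23, RPL4 and RPS12) held 46.3% of the sum of the 82 genes.

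With a gene of several accessions, the choice of accession can change its value. RPS20, at 36.7 reads in its leading accession, had a log2FC of -0.80 (SE 0.33, adjusted p = 0.0619 per the authors' deposited table). Its other accession, at 32.0 reads, had one of -0.07 (SE 0.34, adjusted p = 0.929 per the authors' deposited table). RPL36 had -0.14 (SE 0.18) in its leading accession and 0.54 (SE 0.29) in the other per the authors' deposited table, and neither passed. Counting only the 36 tested genes with 1 accession, a restriction chosen after seeing the data, 14 rose, 1 fell and 21 did not pass. Their median log2FC was 0.20. The share among all genes with 1 accession is not given here. Most of these genes are abundant: 29 had a base mean of at least 1000. Of those 29, 48.3% were called, against 48.5% of all tested genes at that level. Higher calls made up 44.8%, against 22.3%, and lower calls 3.45%, against 26.2%.

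The start of the transcript is where ribosomal protein genes share a sequence feature that the selection did not use. The RefSeq promoter table (GRCh38.p14) held 65 of the 82 genes, by symbol. A C at the annotated start followed by at least 4 pyrimidines on the gene's own strand was found in 43 of these 65 (66.2%) and in 729 of all 15843 coding promoters. With the motif allowed to begin within 5 bases of the start, it was found in 51 of 65 (78.5%) and in 22.1% of all. The windows below, 40 bases before to 20 bases after the start and 5′ to 3′ on the gene's strand, show genes with the motif, of which all but RPS12 rose, with the pyrimidine run at the start in capitals.
FAU (chr11:65122115-65122174, minus strand): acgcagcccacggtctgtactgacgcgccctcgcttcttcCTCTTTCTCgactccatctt
RPS6 (chr9:19380217-19380276, minus strand): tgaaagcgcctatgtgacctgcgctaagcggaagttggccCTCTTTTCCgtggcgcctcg
RPS21 (chr20:62387063-62387122, plus strand): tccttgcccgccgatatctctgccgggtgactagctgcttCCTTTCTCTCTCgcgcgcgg
RPLP2 (chr11:809927-809986, plus strand): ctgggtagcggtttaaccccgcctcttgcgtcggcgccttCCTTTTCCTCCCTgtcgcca
RPL27A (chr11:8682752-8682811, plus strand): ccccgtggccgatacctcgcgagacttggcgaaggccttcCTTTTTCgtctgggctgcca
RPS12 (chr6:132814529-132814588, plus strand): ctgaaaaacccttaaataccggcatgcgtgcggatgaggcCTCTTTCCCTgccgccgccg

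The motif was absent at the annotated starts of RPL27 and RPS26, the genes with the largest rises, of RPS27L, the gene that fell, and of RPS4X, the most abundant one. No pyrimidine run begins at the annotated start in these windows, so they hold no capitals. RPS7, which also rose, has a run of 3 pyrimidines there, too short to count. In RPL27 and RPS26 pyrimidine runs lie further on, and whether their transcripts begin at another base was not tested.
RPL27 (chr17:42998379-42998438, plus strand): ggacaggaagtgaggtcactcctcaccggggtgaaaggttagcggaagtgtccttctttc
RPS26 (chr12:56041878-56041937, plus strand): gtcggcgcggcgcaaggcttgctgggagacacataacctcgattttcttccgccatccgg
RPS27L (chr15:63157458-63157517, minus strand): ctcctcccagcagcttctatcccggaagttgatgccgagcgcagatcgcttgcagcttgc
RPS4X (chrX:72277229-72277288, minus strand): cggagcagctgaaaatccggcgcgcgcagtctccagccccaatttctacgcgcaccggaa

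The shares with the motif were close in called and uncalled genes: it stood at the start of 8 of 12 called genes with a promoter entry (66.7%) and of 25 of 39 tested but uncalled ones (64.1%). Over all tested ribosomal protein genes with an entry, 8 of 33 with the motif rose (24.2%) and 0 fell, with a median log2FC of 0.23, and of 18 without it 3 rose (16.7%) and 1 fell, with a median of 0.29. At a base mean of at least 1000, 8 of 18 ribosomal protein genes with the motif rose and 0 fell, and of 5 without it 1 rose and 1 fell, per the authors' deposited table. Outside the ribosomal proteins, 99 coding genes at that level had the motif, of which 22 (22.2%) rose and 19 (19.2%) fell, against 356 and 384 of 1535 without it. Their median log2FC values were 0.03 with the motif and 0.01 without it, against 0.19 for the 18 ribosomal protein genes.

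In the whole promoter window, 250 bases before to 50 after the start and read on both strands, CCGGAAG, a core of ETS family sites, was in 22 of 65 ribosomal protein promoters (33.8%) and in 14.2% of all coding ones. The palindromic motif that ZBTB33 binds in housekeeping promoters was in 4 (6.15%), against 0.669% of all, and AAGATGGC, a core of YY1 sites, in 7 (10.8%), against 3.91%. GGGCGG, an Sp1 core, was in 37 (56.9%), against 58.5%, TATAAA in 6 (9.23%), against 9.63%, and CACGTG, the E-box bound by MYC, in 3 (4.62%), against 8.88%. The comparison depends on the background. Among other tested coding genes the shares were 19.3% for CCGGAAG, 0.832% for the ZBTB33 motif and 5.23% for AAGATGGC. For GGGCGG the share there was 69.9%, for TATAAA 6.35% and for CACGTG 9.78%. A base may count towards more than 1 motif, and a match is only a run of letters.

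Other lists of translation genes were set beside the ribosomal proteins. Of other mRNAs known for a TOP motif, 3 of 17 tested rose and 0 fell per the authors' deposited table (17.6% higher, against 12.4% of all tested genes), with a median log2FC of 0.22. At a base mean of at least 1000, 1 of 8 rose (12.5%), against 22.3% of all tested genes at that level. RACK1, a scaffold protein of the small subunit, rose by 0.49 (SE 0.07, adjusted p = 3.49e-10), the elongation factor subunit EEF1G by 0.33 (SE 0.11) and COX4I1, a subunit of the respiratory chain, by 0.99 (SE 0.38, base mean 15.2) per the authors' deposited table. The abundant TOP mRNAs of the elongation factors EEF2 (0.06, SE 0.07) and EEF1A1 (0.06, SE 0.11) and of the poly(A)-binding protein PABPC1 (-0.12, SE 0.08) did not pass, by log2FC values per the authors' deposited table. Relative to its neighbours on the chromosome EEF1G stood at 0.13 (adjusted p = 0.42) and lost its call.

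Initiation factors rose in 5 of 21 tested genes (23.8%, against 12.4% of all tested genes) and fell in 0 per the authors' deposited table, with a median log2FC of 0.26. All 5 were among the 14 with a base mean of at least 1000 (35.7%, against 22.3% of all tested genes there). EIF2B1 (0.62, SE 0.09, adjusted p = 1.24e-10) and EIF2B2 (0.34, SE 0.08), subunits of the factor that recharges EIF2 with GTP, led them per the authors' deposited table. EIF3I, a subunit of the scaffold factor EIF3 (0.32, SE 0.08), EIF4A3, an RNA helicase of the exon junction complex (0.26, SE 0.09), and EIF2S1, a subunit of EIF2 itself (0.23, SE 0.07), also rose by these log2FC values per the authors' deposited table. Elongation, termination and quality control genes had 1 of 10 tested higher and 1 lower, against 12.4% and 12.7% of all tested genes. ZNF598, which marks collided ribosomes, rose by 0.36 (SE 0.14), and EEF2K, the kinase that inhibits EEF2, fell by 0.29 (SE 0.08) on the log2 scale per the authors' deposited table. Relative to neighbours EIF4A3 (0.20, adjusted p = 0.0956) and ZNF598 (0.22, adjusted p = 0.309) lost their calls.

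Regulators of TOP mRNAs and of mTOR rose in 3 of 13 tested genes (23.1%, against 12.4% of all tested genes) and fell in 0 per the authors' deposited table. All 3 were among the 7 with a base mean of at least 1000, where 22.3% of all tested genes rose. These were LARP1 (0.27, SE 0.07, adjusted p = 0.000531), MTOR (0.28, SE 0.08) and RHEB, the GTPase that activates mTOR (0.22, SE 0.08, adjusted p = 0.0269), by log2FC values per the authors' deposited table. None of these 3 kept its call relative to its neighbours on the chromosome, with LARP1 at 0.17 (adjusted p = 0.0526), MTOR at 0.18 (adjusted p = 0.108) and RHEB at -0.05 (adjusted p = 0.712). Chaperones and importers of ribosomal proteins rose in 3 of 11 tested genes (27.3%, against 12.4% of all tested genes) and fell in 0, with GRWD1, whose yeast counterpart is a chaperone of RPL3, at 0.75 (SE 0.10, adjusted p = 7.29e-12), and the importins KPNB1 at 0.34 (SE 0.09) and IPO7 at 0.30 (SE 0.08) per the authors' deposited table. All 3 were among the 6 with a base mean of at least 1000, where 22.3% of all tested genes rose. Relative to neighbours KPNB1 stood at 0.17 (adjusted p = 0.187) and IPO7 at 0.16 (adjusted p = 0.131) and lost their calls, while GRWD1 kept its own at 0.67 (adjusted p = 9.47e-10). Ribosomal protein genes of Diamond-Blackfan anaemia, an inherited failure of red cell production, are a part of the ribosomal protein genes counted above. Of these, 3 of 13 tested (23.1%) rose, namely RPS7, RPS26 and RPL27, and 0 fell per the authors' deposited table. That share is close to the 24.6% of all tested ribosomal protein genes that rose, against 12.4% of all tested genes. RPS19, the gene most often mutated in it, had a log2FC of 0.58 (SE 0.30, adjusted p = 0.171 per the authors' deposited table) at a base mean of 46.7.

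**Figure D4:**
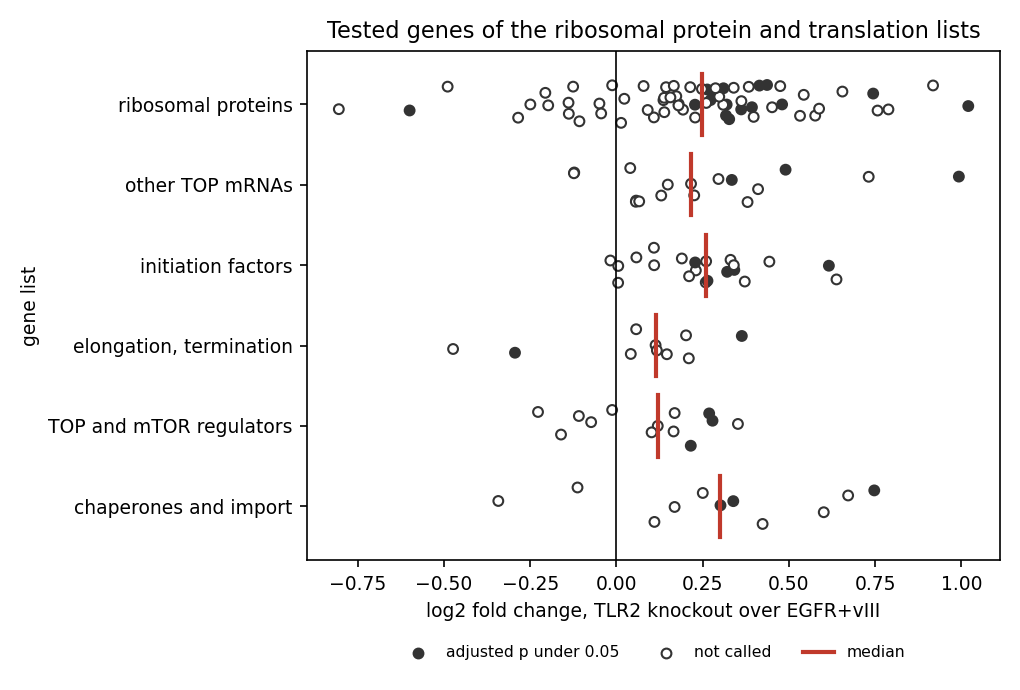
Log2 fold change of each tested gene in the ribosomal protein list and in 5 other lists of translation genes, with the list median as a red line. Filled points passed an adjusted p of 0.05; the medians lie between 0.12 and 0.30 in all 6 lists.

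Coding length and chromosome position were set beside the rises. Other abundant genes of short coding length did not show the same split. Of 298 other genes with a base mean of at least 1000 and a coding length under 600 bases, 64 rose and 64 fell. Their median log2FC was 0.00 per the authors' deposited table, and the length of whole transcripts was not tested. Among the 31 abundant ribosomal protein genes, the log2FC was weakly related to coding length (Spearman rho -0.17) and to base mean (rho -0.08), as descriptions across genes of the same libraries.

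The other measure was position. For each tested gene, the median log2FC of the 10 nearest tested genes on each side was subtracted. The p-values on this scale rest on each gene's own SE alone. They treat the neighbours' median as known without error and may therefore be too small. Of the 16 genes that rose, 11 kept the call, while FAU, RPS21, RPL12, RPL23A and RPL27A lost it. The neighbours of RPS21 on chromosome 20 had a median of 0.34, leaving RPS21 at 0.05 (adjusted p = 0.799), and those of FAU one of 0.26, leaving FAU at 0.15 (adjusted p = 0.171). RPLP2 lies among neighbours with a median of -0.34 and stood at 0.52 relative to them (adjusted p = 7.22e-14). RPL37 stood at 0.54 (adjusted p = 2.7e-07), RPS6 at 0.41 (adjusted p = 1.82e-06) and RPS27L at -0.80 (adjusted p = 2.82e-13). On this scale 13 genes were higher and 2 lower. RPL13 and RPL29 joined the higher ones and RPL10A (-0.44, adjusted p = 0.000263) the lower ones, named here after their values were seen. The share of all tested genes called on this scale is not given here, so these counts stand without a background. The part that chromosome position has in the fold changes was not tested further.

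**Figure D5:**
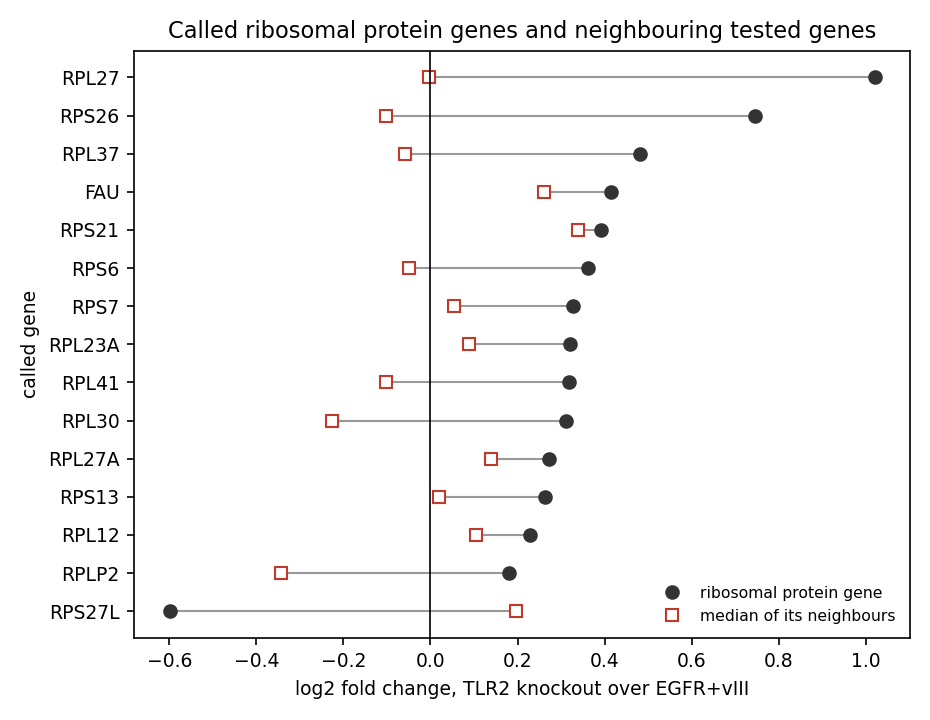
Log2 fold change of 15 of the 17 called ribosomal protein genes (filled circles) and the median of the 10 nearest tested genes on each side of each (open squares). RPS21 and FAU lie close to their neighbours' medians of 0.34 and 0.26, and RPLP2 and RPS27L lie far from theirs.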

How the data were processed

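RNA of 6 libraries was sequenced and aligned to hg38 with STAR, and groups were compared with DESeq2, per the submitters' processing notes; versions, aligner settings, the counter and the annotation were not given in the sources used here. Per the file headers, the deposited table holds for each RefSeq accession a base mean (a signal, reads divided by size factors), a log2 fold change with its SE, a Wald score, a p-value and an adjusted p-value. No SE exceeds 0.382, also for accessions with very few reads, so the deposited log2 values of low genes may understate changes. Of 67933 accessions, 49824 were listed at 0 and 10303 had an adjusted p.

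From these values symbols were matched through RefSeq (GRCh38.p14), for 98.8% of accessions. Coding lengths came from GENCODE for 79 of the 82 genes. Size factors were derived from accessions with 1 read. The 95% intervals use a normal approximation from the SE. Tests against 1.5-fold, scaled scores and neighbour-relative values were recomputed over all tested accessions, with Python 3.11.15, pandas 2.3.3, numpy 2.4.6, scipy 1.17.1 and matplotlib 3.10.9, and the code was tested on simulated data. Named genes were a set of 21 well-known ribosomal protein genes, the 12 largest called rises and falls, the 5 highest base means, genes at 0 and every called gene of the other lists; further genes were chosen after their values were seen. The genes and lists were chosen with earlier results of these data known. With no values per library, no count model was fitted. Some genes that this rule names are not reported here, singly or in the plots, but stay in the counts and medians.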

Additional observations from a re-analysis of the deposited data

How the results depend on the processing

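Of the 65 tested ribosomal protein genes, 16 were higher in the knockout. The count was 10 at an adjusted p under 0.01, 1 with scaled Wald scores and 0 for a change of more than 1.5-fold. Among all tested accessions, 3.73% were higher with scaled scores and 1.92% for a change of more than 1.5-fold. The shares of all tested accessions at 0.01, after centring and relative to neighbours are not given here, so those counts stand without a background. The lower count of 1 became 0 for a change of more than 1.5-fold and 2 relative to neighbouring genes. The large subunit's 8 became 4 at 0.01, 5 after centring on the median of tested accessions, 0 with scaled scores and 0 beyond 1.5-fold, and the small subunit's 8 became 1 with scaled scores and 0 beyond 1.5-fold. In the other lists 15 higher became 3 and 0, and 1 lower became 0 and 0, with scaled scores and beyond 1.5-fold. Relative to neighbours the log2 fold changes of RHEB (-0.053), RPL3 (-0.012), RPL4 (0.054) and RPS4X (0.20) had the other sign. The cause was not tested. Under the remaining alternatives the higher count stayed between 13 and 16, and the median log2 fold change between 0.18 and 0.26; the median without the paralogs, the values of genes with 1 accession and the share over all accessions were alternatives chosen after seeing the data. Relative to neighbours, 8 of the 15 called rises of the other lists lost their call. Other genes of these lists gained a call, so that the higher count on this scale was again 15. Few reads were listed for the 51 ribosomal protein genes with a base mean under 1000, of which 41 have 2 or more accessions, and their fold changes are less precise. No paired analysis was possible because the table holds no value per library, and for the same reason no library could be left out.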
